A study of Glycine max with 16 samples.

Results

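Between the morning and the end of the afternoon, 179 of the 36059 genes measured in field-grown soybean leaflets lost transcript at every sampled hour and ended at 6.23% or less of their morning level. They were chosen by their mean abundance over 4 plots, which had to fall from 8:00 to 11:00, from 11:00 to 14:00 and from 14:00 to 17:00, to be at least 20 CPM (counts scaled to a library size of 1000000) at 8:00 and at least 16 times the 17:00 mean, and to be less than 4 times the 11:00 mean at 8:00. The last condition leaves out genes that drop abruptly in the morning, and 14 genes met all the others but not that one. Among the members were the morning clock genes LCL1 and LCL2, a Rubisco activase gene, 3 genes of chlorophyll synthesis and a nitrate reductase gene. Since the fall itself selected these genes, their hourly levels are given as a description and not as a test.

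Soybean cultivar 93B15 was grown in 4 field plots and sampled at reproductive stage, as leaflets of the youngest leaf at the top of the plant that was fully expanded. All groups share that cultivar, field and leaf position, and they differ in the hour of harvest, which was 8:00, 11:00, 14:00 or 17:00 (2 h 20 min to 11 h 20 min after dawn). Each plot is 1 biological replicate and was sampled on a day of its own, so that plot and sampling day cannot be told apart. There were 16 libraries of poly-A RNA, and each hour had 4. Counts assigned to genes ranged from 14968570.0 to 25691784 per library. Abundance is CPM after TMM scaling (trimmed mean of M-values, which sets libraries to a common effective size), so a level is relative to the rest of the library and is not corrected for gene length. Levels are therefore compared between libraries and not between genes. A leaflet is a mixture of cell types, and fewer cells of a type cannot be told apart from less RNA per cell. A Rubisco small chain gene, Glyma.13G046200, had 4105 to 14491 CPM over the 16 libraries, and the chlorophyll a/b binding protein gene Glyma.08G082900 had 1383 to 11148, whereas another binding protein gene, Glyma.02G080800, stayed at 5.66 CPM or less.

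Transcripts that are high after dawn and low at dusk are common in leaves. The circadian clock of plants keeps a set of MYB transcription factors for the morning, named LHY and CCA1 in Arabidopsis, which repress genes of the evening and are themselves repressed later in the day. Light harvesting, chlorophyll synthesis and nitrate assimilation are further processes whose transcripts are known to be timed to the day. The level at any hour is the balance of synthesis and decay, and neither was measured here.

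The members as a group took a shrinking part of the counts. They held 4.79 to 5.94% of all counts in the 4 libraries of 8:00, 3.02 to 3.60% at 11:00, 1.01 to 1.22% at 14:00 and 0.177 to 0.262% at 17:00. The Rubisco activase gene Glyma.11G221000 made up a large share of these, and without it the members held 3.09 to 3.97% at 8:00 and 0.130 to 0.202% at 17:00. The ranges of the 4 hours did not overlap in either case. At 8:00 the median member had 92.9 CPM, 8 members had at least 1000 CPM and 94 had less than 100. At 17:00 the median was 2.43 CPM and 36 members were under 1 CPM.

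In proportion to the level still present, the loss accelerated through the day in most members, whereas the amount lost did not grow in the median member. The median member kept 48.6% of its 8:00 mean at 11:00, 16.2% at 14:00 and 3.41% at 17:00. On the log2 scale the median drop was 1.04 from 8:00 to 11:00, 1.60 from 11:00 to 14:00 and 2.499 from 14:00 to 17:00. As a rate, the net level of the median member halved every 2.89 h in the morning step and every 1.20 h in the afternoon step. The afternoon step was the largest in 138 members, the midday step in 33 and the morning step in 8, and in 113 members each step exceeded the one before. The limit of 4-fold on the morning step bounds the first drop at 2 on the log2 scale, so these counts partly follow from the rule. The 4 libraries of 8:00 lay above the 4 of 11:00 without overlap in 105 members (8.24% of all genes kept did so), those of 11:00 above those of 14:00 in 156 (7.37% of all) and those of 14:00 above those of 17:00 in 163 (10.7% of all). The rule used the same hours, so nothing is read from these shares.

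**Figure D1:**
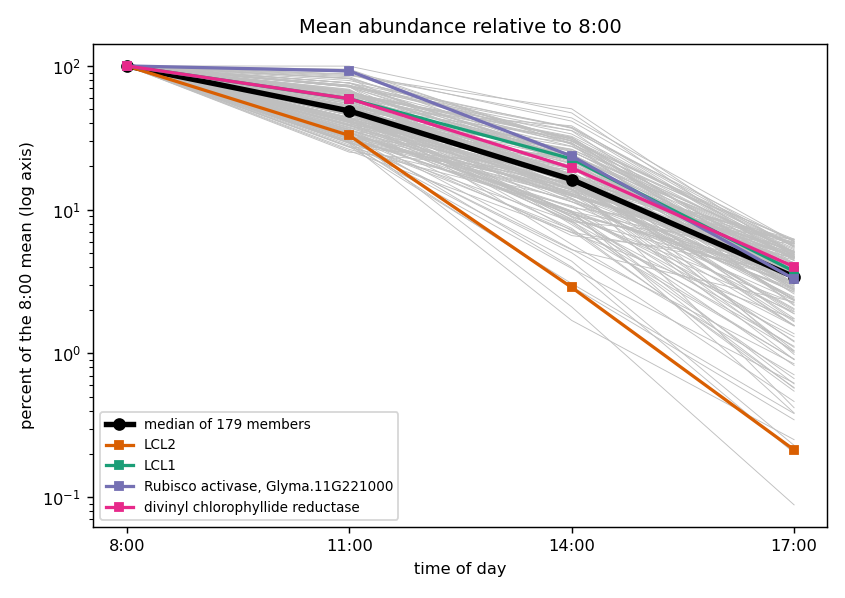
Mean abundance of each of the 179 members at 4 times of day, as percent of its own 8:00 mean on a log axis, with grey lines for single members, a black line for their median and coloured lines for 4 named genes. The median line falls to 3.41% at 17:00, LCL2 lies far under it from 14:00 on, and Rubisco activase stays near its 8:00 level until 11:00.

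The members differed widely in the depth of the fall. The fold from 8:00 to 17:00 had a median of 29.3, 102 members fell less than 32-fold, and 23 fell at least 100-fold. By single plots, 132 members were in strict order in all 4 plots, 37 in 3 plots and 10 in 2 plots. Just inside the fold threshold were Glyma.19G219500 (16.0-fold), Glyma.03G057100 (16.1-fold) and Glyma.05G050100 (16.1-fold). Just outside were Glyma.13G354900 (15.9-fold), Glyma.15G057600 (15.7-fold) and Glyma.14G049700 (15.7-fold). The lowest 8:00 mean of a member was 20.1 CPM (Glyma.05G214300), and Glyma.07G116700 missed only that limit, at 19.8 CPM. The 8:00 mean was 3.98 times the 11:00 mean in Glyma.09G263400, the member nearest that limit, and 4.02 times in Glyma.12G234500, the first gene beyond it.

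Of the members, 11 carry a name in the sources used here, and the other 168 are locus identifiers only. The names of LCL1, LCL2, Rubisco activase, the divinyl chlorophyllide reductase and the chlorophyllide a oxygenase loci are those printed beside the locus in the study's plots, and they were not checked against a genome annotation here. Both named clock genes code for relatives of the Arabidopsis morning factors LHY and CCA1. Further copies among the unnamed members were not looked for. LCL2 (LHY/CCA1-LIKE 2, Glyma.03G261800, chromosome 3) had 898, 1130.2, 1267 and 904 CPM in plots 1 to 4 at 8:00, 303, 413, 374 and 289 at 11:00, 43.0, 25.042, 33.3 and 19.7 at 14:00 and 3.46, 1.97, 2.34 and 1.19 at 17:00. Every plot stepped down at every hour, and plot 4 was the lowest at 11:00, 14:00 and 17:00. The hour means were 1050.0 ± 181, 345 ± 58.9, 30.2 ± 10.2 and 2.24 ± 0.945 CPM (SD, n = 4 plots), a 469-fold fall that was the third largest among the members.

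LCL1 (Glyma.07G048500, chromosome 7), a related copy, fell less. It had 269.6, 595, 621 and 296 CPM in plots 1 to 4 at 8:00, 206, 338, 291 and 218 at 11:00, 106, 108, 107 and 81.3 at 14:00 and 21.4, 11.0, 21.5 and 12.4 at 17:00. At 8:00 plots 2 and 3 stood well above plots 1 and 4, whereas by 14:00 plots 1 to 3 were nearly level. The means ran from 445 ± 188 CPM at 8:00 to 16.6 ± 5.63 CPM at 17:00 (SD, n = 4 plots), a 26.9-fold fall. LCL2 had lost 1.61 on the log2 scale by 11:00 and a further 3.51 by 14:00, against 0.76 and 1.39 for LCL1. Neither clock gene was called between plots (edgeR adjusted p = 0.187 for LCL2 and 0.223 for LCL1).

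The Rubisco activase gene Glyma.11G221000 (chromosome 11) encodes an enzyme that frees Rubisco of bound inhibitory sugar phosphates and so keeps carbon fixation active. It had 12219, 18994, 21903 and 12252 CPM in plots 1 to 4 at 8:00, 13058, 20107, 16580.5 and 10648 at 11:00, 3349, 4654, 4964 and 2455 at 14:00 and 513, 491, 710.1 and 441 at 17:00. In plots 1 and 2 the 11:00 library was above that of 8:00, and in plots 3 and 4 below it, so the order of the morning step rested on the mean (16342 ± 4888 against 15098 ± 4133 CPM, SD, n = 4 plots). From 11:00 on every plot fell at each step, to 539 ± 118 CPM at 17:00, 30.3-fold below 8:00. Plots 2 and 3 were above plots 1 and 4 until 14:00, and the range of the plots was 0.79 on the log2 scale over all hours (edgeR adjusted p = 0.0315 between plots, under the fold threshold of 1).

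The 3 chlorophyll genes act late in the pathway. Divinyl chlorophyllide reductase reduces a vinyl group on the pigment ring, and chlorophyllide a oxygenase makes the b form, a pigment of the light-harvesting antenna. The reductase gene Glyma.13G215400 (chromosome 13) had 81.2, 65.7, 88.5 and 66.7 CPM in plots 1 to 4 at 8:00, 39.1, 67.6, 46.5 and 25.6 at 11:00, 10.3, 23.2, 16.8 and 8.57 at 14:00 and 2.79, 2.98, 3.87 and 2.46 at 17:00. Plot 2 did not fall before 11:00 and the other plots did, and the 17:00 libraries of all plots lay close together. The mean went from 75.5 ± 11.2 at 8:00 through 44.7 ± 17.5 at 11:00 to 3.03 ± 0.603 CPM at 17:00 (SD, n = 4 plots), 24.953-fold. The study describes transcripts for this enzyme as peaking near 11:00, whereas the mean of this locus was highest at 8:00. The name comes from a plot label, and the difference was not resolved here.

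The oxygenase gene Glyma.14G150600 (chromosome 14) had 75.8, 54.3, 87.8 and 88.0 CPM in plots 1 to 4 at 8:00, 39.4, 43.9, 40.7 and 33.0 at 11:00, 27.3, 41.2, 30.5 and 18.2 at 14:00 and 3.69, 4.54, 3.19 and 2.28 at 17:00. It lost little between 11:00 and 14:00, by 0.42 on the log2 scale, the smallest midday step of all members, and then 3.10 by 17:00. The study counts 4 putative soybean genes for this enzyme, and copies other than Glyma.14G150600 and Glyma.06G113500 are not described here. Glyma.06G113500 (chromosome 6) had 68.7, 39.8, 65.6 and 67.7 CPM in plots 1 to 4 at 8:00, 29.5, 35.7, 21.3 and 33.5 at 11:00, 8.79, 16.4, 8.54 and 17.2 at 14:00 and 2.12, 1.65, 2.30 and 3.15 at 17:00. Its 8:00 library of plot 2 was well below those of the other plots, which were nearly level. The folds from 8:00 to 17:00 were 22.3 and 26.2, and at 14:00 Glyma.14G150600 kept 38.3% of its 8:00 mean and Glyma.06G113500 21.0%.

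**Figure D2:**
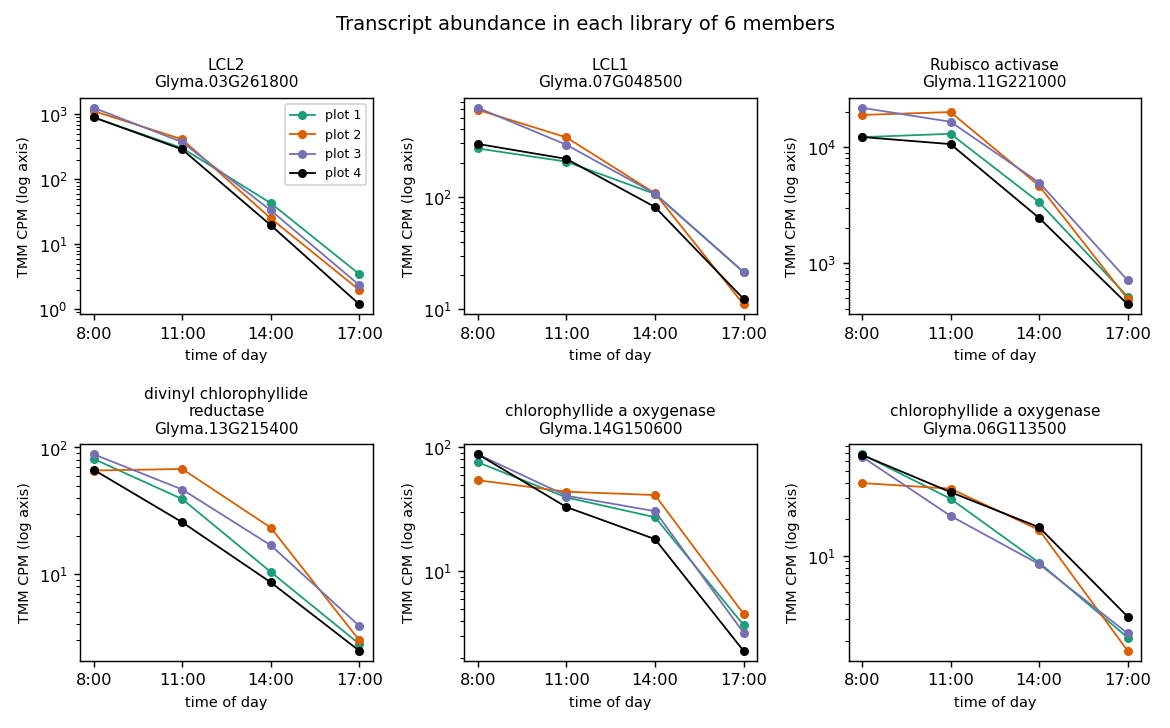
TMM CPM on a log axis (a separate scale for each gene) against time of day for 6 named members, with 1 line per plot and no averaging. LCL2 falls at every step in each plot, and its plots lie apart at 17:00 (3.46 CPM in plot 1, 1.19 in plot 4). The lines of LCL1 and Rubisco activase start apart by plot, and in the 3 chlorophyll genes the 8:00 point of plot 2 is the lowest of the 4.

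Nitrate reductase, which reduces nitrate to nitrite at the start of nitrogen assimilation, was represented by Glyma.13G084000 (chromosome 13). It had 66.3, 8.95, 86.2 and 12.1 CPM in plots 1 to 4 at 8:00, 14.7, 14.8, 13.5 and 4.08 at 11:00, 16.4, 1.02, 1.21 and 1.74 at 14:00 and 2.59, 0.275, 1.19 and 1.69 at 17:00. Plots 1 and 3 were high at 8:00 and plots 2 and 4 were not, and the 8:00 mean of 43.4 ± 38.8 CPM (SD, n = 4 plots) lies between those pairs. The gene was in strict order in 2 of 4 plots, and its place among the members rests on plots 1 and 3. The other nitrate reductase locus with a name, Glyma.06G109200, was no member. It had 1602 ± 1219.8 CPM at 8:00, 1796 ± 356 at 11:00 and 305 ± 59.7 at 17:00 (SD, n = 4 plots), lower at 17:00 than at 8:00 by the edgeR test (log2 difference -2.21 ± 0.37 SE, adjusted p = 1.89e-04).

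The remaining named members are a cell wall gene, a proline-rich protein gene, an SPX gene and a resistance gene, and all 4 differed between plots as well as between hours. Glyma.12G004600 (chromosome 12) is matched to the invertase and pectin methylesterase inhibitor family, whose members block enzymes of the cell wall. It had 79.6, 247, 47.3 and 58.4 CPM in plots 1 to 4 at 8:00, 47.8, 89.8, 45.8 and 25.7 at 11:00, 7.02, 19.9, 6.98 and 3.32 at 14:00 and 0.747, 3.30, 1.23 and 0.365 at 17:00. Plot 2 was the highest at all 4 hours. Glyma.06G067000 (chromosome 6), matched to a proline-rich protein first described in carrot as DC2.15, had 137, 180.4, 68.9 and 51.6 CPM in plots 1 to 4 at 8:00, 49.4, 123, 48.6 and 11.9 at 11:00, 7.47, 19.1, 8.94 and 1.66 at 14:00 and 2.16, 10.3, 1.83 and 0.320 at 17:00. Plot 2 was again the highest and plot 4 the lowest at every hour. Other loci with the same names were no members. Glyma.05G068800, of the inhibitor family, stayed under 1 CPM at all hours, too low to show such a fall. Glyma.04G065600, the other DC2.15 match, had 126 ± 60.9 CPM at 8:00 and 88.4 ± 72.4 at 17:00 (SD, n = 4 plots; edgeR adjusted p = 0.0977).

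Glyma.09G263400 (chromosome 9) carries an SPX domain, a module known from plants as a sensor of phosphate status. It had 52.2, 54.9, 83.2 and 13.7 CPM in plots 1 to 4 at 8:00, 14.5, 18.7, 11.7 and 6.35 at 11:00, 3.94, 20.5, 8.54 and 2.82 at 14:00 and 0.825, 2.47, 2.13 and 0.913 at 17:00. Plot 4 was low at 8:00, 11:00 and 14:00, and the 14:00 library of plot 2 was above its own 11:00 library. Glyma.01G135500 and Glyma.10G229900, which also carry SPX names, had 8:00 means of 1.78 and 0.973 CPM, too low to show such a fall. Their 17:00 means were 1.30 and 2.29 CPM, with no call between 17:00 and 8:00 (edgeR adjusted p = 0.393 and 0.297). Glyma.13G076200 (chromosome 13) is matched to a TIR-NBS-LRR protein, the type of intracellular receptor that plants use to detect pathogens. It had 21.7, 16.7, 46.8 and 65.7 CPM in plots 1 to 4 at 8:00, 6.61, 5.50, 13.2 and 38.1 at 11:00, 4.64, 4.13, 4.77 and 20.0 at 14:00 and 1.61, 0.550, 0.724 and 2.56 at 17:00. Here plot 4 was the highest at every hour.

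The deepest falls belonged to unnamed loci apart from LCL2. Glyma.03G216900 (chromosome 3) had 47.4, 26.7, 70.5 and 51.6 CPM in plots 1 to 4 at 8:00, 9.03, 25.7, 16.2 and 13.4 at 11:00, 0.370, 2.36, 0.402 and 1.00 at 14:00 and 0.0393, 0.0458, 0.0426 and 0.0456 at 17:00. At 17:00 these were 4 counts over the 4 libraries, which allow a mean of 0.0118 to 0.111 CPM (exact Poisson 95% interval), so that the fold of 1131 has a counting interval of 444 to 4169. Such intervals cover counting error only. Glyma.08G314700 (chromosome 8) fell 493-fold from a level that was nearly the same in all plots at 8:00, with 169, 171, 159 and 150.0 CPM in plots 1 to 4 at 8:00, 65.4, 64.7, 48.5 and 38.3 at 11:00, 9.36, 5.90, 5.33 and 5.25 at 14:00 and 0.550, 0.321, 0.170 and 0.274 at 17:00. The 8:00 libraries of this locus had the tightest start among the 10 deepest falls, and its order held in all plots.

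Among the other 7 of the 10 deepest falls, Glyma.10G048500 fell 436-fold (from 148 ± 15.4 to 0.340 ± 0.104 CPM), Glyma.12G196200 fell 398-fold (from 95.002 ± 35.9 to 0.239 ± 0.176 CPM), Glyma.04G133400 fell 289.6-fold (from 59.0 ± 10.7 to 0.204 ± 0.0257 CPM) and Glyma.17G211900 fell 262-fold (from 839.9 ± 174 to 3.21 ± 0.436 CPM; SD, n = 4 plots). Glyma.12G196200 had 0 counts in the 17:00 library of plot 3 and was the only member with a library at 0, and its midday step of 4.09 on the log2 scale was the largest of all members. Glyma.15G229400 fell 259-fold, Glyma.08G221600 239-fold and Glyma.05G195900 216-fold. Glyma.08G221600 had the steepest afternoon, 5.20 on the log2 scale between 14:00 and 17:00. Its 8:00 values were 86.1, 24.983, 62.0 and 64.4 CPM in plots 1 to 4, and plot 2 was the lowest by a wide margin. The deepest falls were thus spread over several shapes, and 9 of these 10 loci, all but Glyma.08G221600, were in strict order in all 4 plots.

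The 10 members with most counts at 8:00 were Rubisco activase, LCL2 and 8 unnamed loci. Glyma.02G292800 (chromosome 2) had 5236, 2100.1, 4452 and 3999 CPM in plots 1 to 4 at 8:00, 2756, 2366, 2237 and 2393 at 11:00, 1102, 515, 560.0 and 525 at 14:00 and 427, 138, 207 and 164 at 17:00. Plot 1 stood above the other plots at every hour and plot 2 below all others at 8:00. The remaining 7 were closer together. Glyma.18G116900 went from 2502 ± 473 to 146 ± 41.8 CPM, Glyma.12G044700 from 2204 ± 329.6 to 72.7 ± 17.5 and Glyma.09G018600 from 1336 ± 325 to 52.0 ± 8.44 (SD, n = 4 plots). Glyma.16G017400 fell 42.5-fold and Glyma.10G261000 22.6-fold, and Glyma.06G189900 and Glyma.09G087200 fell 57.6-fold and 18.6-fold. Glyma.10G261000 kept 79.1% of its morning level at 11:00 and 4.42% at 17:00. Glyma.06G189900 kept 32.1% at 11:00 and 1.74% at 17:00, so a member could be early or late within the same rule.

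The order of the hours can be read in a plot that the choice did not use. The rule was applied to 3 plots at a time and the plot held back was read. With plot 1 left out, 190 genes were chosen and 181 of them (95.3%) fell at every step in plot 1, against 25.9% of all genes with at least 20 CPM at 8:00. With plot 3 left out, 172 of 175 (98.3%) did so in plot 3, against 30.5%, and with plot 4 left out 165 of 169 (97.6%) in plot 4, against 23.3%. In plot 2 the count was 131 of 183 (71.6%), against 19.9%. Of the 183 genes, 46 were not higher at 8:00 than at 11:00 in plot 2, 4 were not higher at 11:00 than at 14:00 and 2 were not higher at 14:00 than at 17:00. A fall of at least 16-fold in the left-out plot was seen in 145 of 190, 133 of 183, 157 of 175 and 152 of 169 genes for plots 1 to 4, against 1.95 to 2.96% of all genes of that level. Each reading is of 1 library per hour and has no test.

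**Figure D3:**
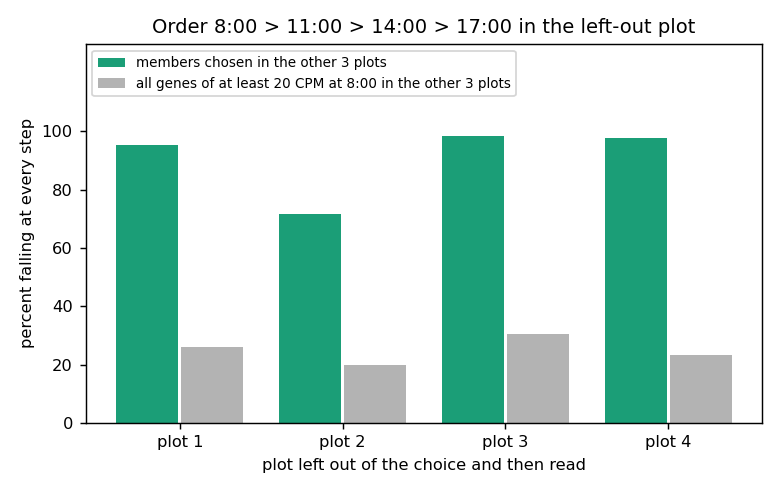
Percent of genes that fell at every step in the plot left out, for genes chosen by the rule in the other 3 plots (green bars) and for all genes of at least 20 CPM at 8:00 (grey bars). The green bars reach 95.3% or more in plots 1, 3 and 4 and 71.6% in plot 2, and the grey bars 19.9 to 30.5%.

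The plots also differed in when the members fell, which the hour means do not show. In plot 2 the members were low at 8:00, by a median of -0.32 on the log2 scale from the mean of the 4 plots, with 132 of 179 below it (73.7%, against 54.8% of the other genes with at least 20 CPM at 8:00). They were high in plot 2 at 11:00 (median 0.23, 76.5% above, against 64.1% of the other genes) and at 14:00 (median 0.25, 76.0% above, against 50.7%). The other genes had medians of -0.04, 0.07 and 0.00379 in the same libraries, so that at 11:00 they were shifted the same way, though by less. The groups nearest the members in shape differed in that 8:00 library. The 7 genes whose mean held or rose to 11:00 and then fell to the same depth had a median of -0.58 there (6 of 7 below), and the 14 genes with an abrupt morning drop a median of 0.40 (10 of 14 above). That library enters the ratio of 8:00 to 11:00 by which these genes were sorted. The difference between the groups is thus partly set by the sorting, and nothing is read from it. Within plot 2 the median member lost 0.58 between 8:00 and 11:00, against 1.13, 1.24 and 1.12 in plots 1, 3 and 4, and it lost 2.83 between 14:00 and 17:00, against 2.21, 2.41 and 2.61. The midday step was alike in all plots, from 1.51 to 1.65. Members with no fall before 11:00 numbered 42 in plot 2, 8 in plot 1, 2 in plot 4 and 0 in plot 3.

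Glyma.07G020400, chosen after its values were seen, shows this shift in a single gene. It had 43.8, 14.6, 37.5 and 34.9 CPM in plots 1 to 4 at 8:00, 28.7, 30.0, 30.0 and 25.3 at 11:00, 12.7, 19.7, 14.9 and 9.61 at 14:00 and 2.28, 2.47, 2.00 and 1.10 at 17:00. Its 8:00 library of plot 2 was the lowest of its hour and below the 11:00 library of the same plot, whereas the other plots fell throughout. The 8:00 and 11:00 libraries of plot 2 entered the means that chose the members, and the shift is a description of 1 plot with no test.

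At 17:00 plots 1 and 4 stood apart instead. Members were high in plot 1 (median 0.32 on the log2 scale, 139 of 179 above the mean of the 4 plots, 77.7% against 48.3% of the other genes of at least 20 CPM) and low in plot 4 (median -0.33, 127 below, 70.9% against 40.1%). The other genes had medians of -0.00890 and 0.07. The 7 genes held to 11:00 lay further apart, with medians of 0.93 in plot 1 and -1.77 in plot 4, and the 14 with an abrupt drop had 0.27 and -0.09. Plot 4 was already low in the members at 14:00 (median -0.22, 128 below, 71.5% against 57.9%). In the single genes, the lowest 17:00 library was that of plot 4 in 94 members (52.5%, against 22.6% of the other genes) and the highest that of plot 1 in 83 (46.4%, against 24.0%). Among the named members only LCL2 had both extremes in those plots, with 3.46 CPM in plot 1 and 1.19 in plot 4. Plot 4 was also lowest in Rubisco activase, the reductase gene, Glyma.14G150600, Glyma.12G004600 and Glyma.06G067000, but plot 1 was not highest in these. In LCL1 and the nitrate reductase gene plot 2 was the lowest (11.0 and 0.275 CPM). Plot 4 was the highest in Glyma.06G113500 and Glyma.13G076200 (3.15 and 2.56 CPM), and plot 1 the lowest in Glyma.09G263400 (0.825 CPM). The labels give the 4 plots the same hours, and plot cannot be told apart from sampling day in these shifts.

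**Figure D4:**
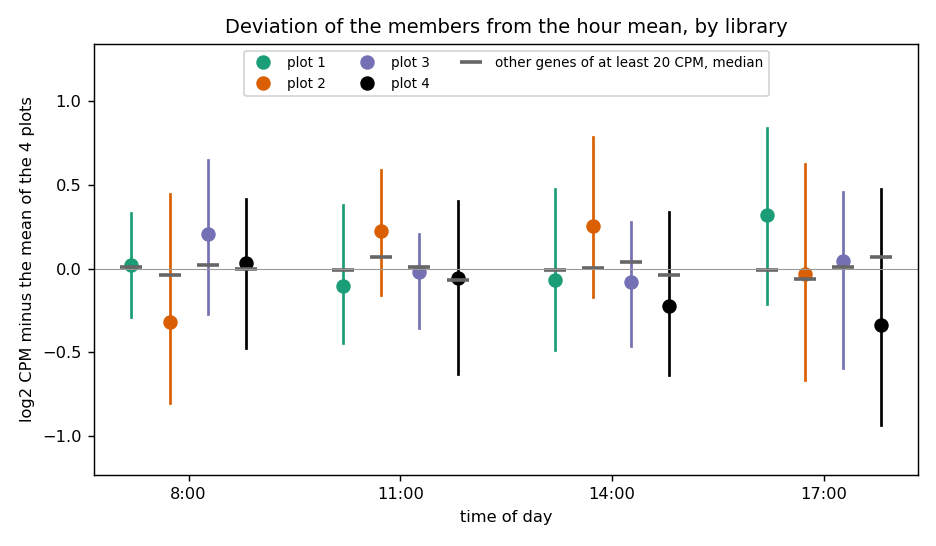
Deviation of the 179 members from the mean of the 4 plots at the same hour, in log2 CPM, by library. Dots are medians over members, vertical lines run from the tenth to the ninetieth percentile and grey dashes are medians of the other genes of at least 20 CPM at 8:00. Plot 2 sits at -0.32 at 8:00 and above 0 at 11:00 and 14:00, and plots 1 and 4 part at 17:00.

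With these shifts, members varied more between plots than genes of like level. The median standard deviation over the 4 plots was 0.36, 0.32, 0.38 and 0.50 on the log2 scale at 8:00, 11:00, 14:00 and 17:00. Other genes whose mean at that hour lay within the 5th to 95th percentile of the members had medians of 0.27, 0.21, 0.20 and 0.31. The member was above the median of those genes in 134, 144, 154 and 145 of 179 cases. The difference was seen at each hour, but the rule can take in a variable gene through 1 library, and no test was made of it.

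Whether members differed in overall level between plots was tested with hour and plot in the edgeR model. With 1 library per plot and hour, the hours of a plot stood in as its replicates. The p-values and standard errors thus measure how even a plot difference was over the hours, and not the spread among plots or days. The model also takes a plot difference as the same at every hour, which the shifts described above depart from. Of the 179 members, 18 (10.1%) were called between any 2 plots, against 6.31% of all genes. A call needed a log2 difference of at least 1 and an adjusted p under 0.05. The choice was made on means over the plots, and a gene can enter through 1 high plot, so this excess is partly set by the rule. Of the 18, 5 had less than 20 CPM at 8:00 once 1 of the plots was left out, among them Glyma.04G252600 (27.3 CPM with all plots, 18.9 at the lowest) and Glyma.05G214300 (20.1 and 18.3 CPM). Of the 140 members that met the whole rule with any 1 plot left out, 8 were called (5.71%), a share near that of all genes, and of the other 39 there were 10. This subset, chosen after the data were seen, leaves out the members that vary most. Neither share therefore decides whether the members as a group differ more between plots than other genes. Of the other genes with at least 20 CPM at 8:00, 450 of 8776 (5.13%) were called. Without the fold threshold there were 27 members, against 10.3% of all genes. Plot 4 against plots 1 to 3 gave 6 lower members (3.35%, against 2.68% of all genes) and 2 higher (1.12%, against 1.51%), shares near those of all genes. Plot 4 was set apart because it had most differences in earlier results of these data. The p-values of that contrast are therefore not those of an unselected test. Plot 2 against plots 1 and 3 gave 2 higher members (1.12%, against 0.233% of all genes) and 0 lower (against 0.0804% of all genes; 18 at an unadjusted p under 0.05, 1 by DESeq2 and 0 by limma-voom). The counts moved with the libraries used, in the members and in most cases in all genes. Between any 2 plots there were 33 members without the 8:00 libraries (6.70% of all genes), 11 without those of 11:00 (2.52%), 4 without those of 14:00 (1.71%), 9 without plot 1 (3.47%) and 8 without plot 4 (1.00%). For plot 4 there were 4 members without the 14:00 libraries (1.93% of all genes).

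Of the 8 members called for plot 4, 4 are named, and both called for plot 2 are among these. The means over the 4 hours in plots 1 to 4 were 33.8, 90.0, 25.3 and 21.9 CPM for the inhibitor gene Glyma.12G004600, which was higher in plot 2 than in plots 1 and 3 (log2 difference 1.54 ± 0.20 SE, edgeR adjusted p = 0.00738) and lower in plot 4 than in plots 1 to 3 (log2 difference -1.23 ± 0.21 SE, edgeR adjusted p = 0.00247). The call for plot 4 was lost without plot 2 (log2 fold change -0.70, adjusted p = 0.0741) and without the 14:00 libraries (-1.15, adjusted p = 0.0510). The proline-rich protein gene Glyma.06G067000 had means of 49.0, 83.1, 32.1 and 16.4 CPM and was lower in plot 4 (log2 difference -2.18 ± 0.31 SE, edgeR adjusted p = 8.23e-04) and higher in plot 2 (log2 difference 1.46 ± 0.27 SE, edgeR adjusted p = 0.0353). Both calls for plot 2 were lost without the 14:00 libraries (adjusted p = 0.171 for Glyma.06G067000 and 0.0939 for Glyma.12G004600) and without plot 1 (0.183 and 0.112), and that of Glyma.06G067000 also without the 11:00 libraries (0.108), the 17:00 libraries (0.112) or plot 3 (0.0728). The log2 differences themselves stayed as large without the 14:00 libraries (1.57 and 1.57) and without plot 1 (1.56 and 1.58), and for Glyma.06G067000 they were 1.52, 1.15 and 1.37 in the other 3 cases. The SPX gene Glyma.09G263400, with 17.9, 24.2, 26.4 and 5.94 CPM, was lower in plot 4 (log2 difference -1.62 ± 0.32 SE, edgeR adjusted p = 0.00616).

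The resistance gene Glyma.13G076200 went the other way. Its plot means were 8.65, 6.72, 16.4 and 31.6 CPM, and plot 4 was higher than plots 1 to 3 (log2 difference 1.83 ± 0.21 SE, edgeR adjusted p = 2.34e-04). Glyma.13G306300, unnamed, was the other member higher in plot 4, with plot means of 48.2, 26.7, 32.2 and 69.0 CPM (log2 difference 1.49 ± 0.26 SE, edgeR adjusted p = 0.00288), a call that was lost without the 14:00 libraries (log2 fold change 1.19, adjusted p = 0.0648). Lower in plot 4 was Glyma.02G059500 with 11.4, 17.7, 14.1 and 4.17 CPM (log2 difference -1.79 ± 0.25 SE, edgeR adjusted p = 7.67e-04). Glyma.05G050100 and Glyma.03G057100, both near the fold threshold of the rule, were also lower there (log2 fold changes -1.10 and -1.24, edgeR adjusted p = 0.0121 and 0.0240). Without the 14:00 libraries neither was called (log2 difference -0.93, adjusted p = 0.0673, and -1.06, adjusted p = 0.153), and Glyma.03G057100 was not called without those of 11:00 (-0.89, adjusted p = 0.156) or without plot 1 (-1.19, adjusted p = 0.0620).

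**Figure D5:**
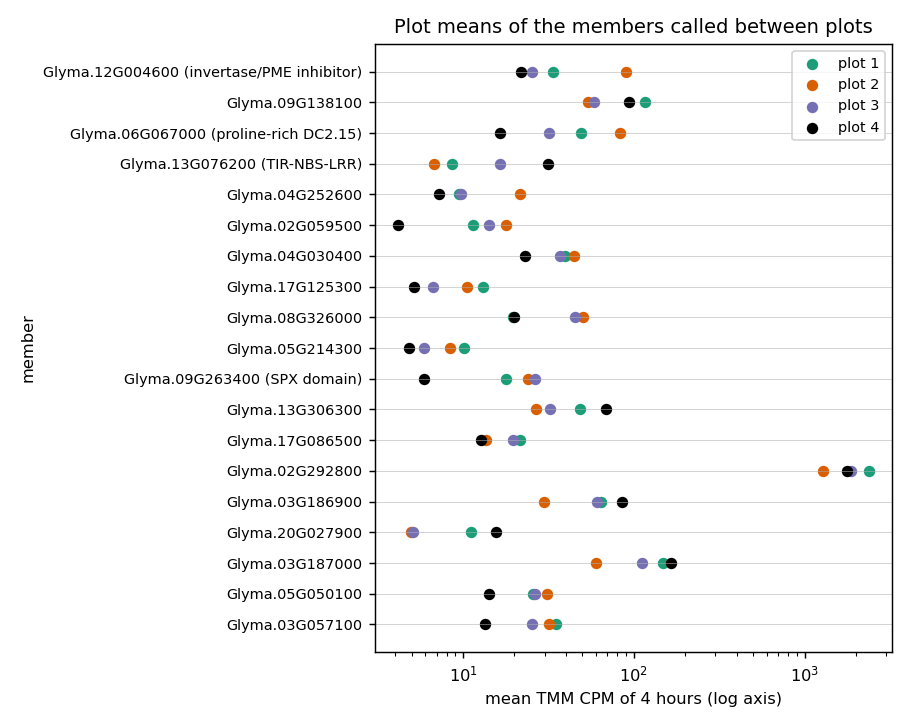
Mean TMM CPM over the 4 hours in each plot, on a log axis, for the 19 members called in any of the 3 plot comparisons, ordered from the smallest adjusted p between plots at the top. Plot 4 is the lowest in 11 of the 19 and the highest in 5, and plot 2 is the highest in 7 and the lowest in 7.

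Among the unnamed members with the smallest adjusted p between plots was Glyma.09G138100, which was called between plots (adjusted p = 9.83e-04 from edgeR) but in neither single contrast. It had 316, 139, 178 and 265 CPM in plots 1 to 4 at 8:00, 98.6, 55.7, 38.2 and 70.2 at 11:00, 27.8, 11.9, 12.1 and 22.4 at 14:00 and 20.5, 8.39, 6.09 and 17.2 at 17:00. Plots 1 and 4 were above plots 2 and 3 at every hour. Its afternoon step of 0.51 on the log2 scale was the smallest of all members, since most of its fall had taken place by 14:00. Glyma.04G252600, Glyma.04G030400, Glyma.17G125300, Glyma.08G326000 and Glyma.05G214300 complete the 10 smallest, with ranges between plots of 1.21 to 1.40 on the log2 scale. Plot 4 had the lowest mean in 4 of these 5.

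Members lay on all 20 chromosomes, from 4 on chromosome 20 to 16 on chromosome 13, and 2 were on unplaced sequence. In the locus order of the table, 6 pairs of members were within 5 loci of each other. Glyma.03G186900 and Glyma.03G187000 are adjacent and both ordered the plots in the same way at 8:00. Their 8:00 values were 157, 38.3, 144 and 203 CPM and 357, 62.1, 274 and 394 CPM in plots 1 to 4, the lowest in plot 2 and the highest in plot 4 for both, and both were called between plots (edgeR adjusted p = 0.0320 and 0.0434). Glyma.11G104100 and Glyma.11G104200, also adjacent, had 30.8% and 17.7% of their 8:00 means left at 14:00. The SPX gene Glyma.09G263400 lies 3 loci from the member Glyma.09G263100, and Glyma.09G263300 between them kept 8.27 CPM at 17:00 of 29.3 at 8:00. The other pairs were Glyma.03G062800 with Glyma.03G063000, Glyma.11G166500 with Glyma.11G166900 and Glyma.12G195900 with Glyma.12G196200. Near-identical neighbours can share reads, and sequences were not compared here, so the similarity of such pairs is uncertain.

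Genes outside the members were read from lists of clock, photosynthesis, nitrogen, growth, hormone, transport and other names, for 931 loci with a name in the study's gene annotation, chosen with earlier results known. Only the nitrogen and sulfur list and the kinase list hold a member, and the lists of LHY/CCA1 factors and of chlorophyll synthesis hold 0 of the 931 loci, so most listed loci belong to processes with no named member. Of the 302 listed loci that are no members, 33 were lower and 51 higher at 17:00 than at 8:00 (edgeR, adjusted p under 0.05 and log2 fold change of at least 1), next to 13.1% lower and 15.6% higher of all genes. The median of these loci was 0.28 on the log2 scale, and that of all genes kept 0.06. Without plot as a replicate block the counts were 17 and 27. Without plot 3 they were 33 lower and 28 higher, so the larger number of higher loci was not seen in that fit. The shares of all genes were not taken for that fit, and the cause was not tested. Among nitrogen and sulfur assimilation, where the nitrate reductase member belongs, 2 of the other 10 loci were lower and 3 higher. Light harvesting and photosystem loci numbered 16 with 0 members, of which 8 were higher, and starch metabolism loci 16 with 3 lower and 4 higher. The inhibitor gene Glyma.12G004600 was counted with protein kinases and phosphatases only through the word dikinase in a further match of that locus, and 4 of the other 34 loci of that list were lower and 3 higher.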

How the data were processed

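Reads were trimmed (Trimmomatic), mapped to assembly version 2 of Williams 82 (TopHat) and assigned to genes (HTSeq-count) by the authors, and the submitters' processing notes also name CASAVA 1.8.2. The deposited values are raw counts for 56044 genes. The sources used here do not state strand or overlap settings, so overlapping or near-identical genes may share counts. All 16 columns matched a sample.

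Genes with 8 or more counts in any library were kept (36059), scaled by TMM and expressed as CPM in R 4.3.3 with edgeR 4.0.16. Deviations and standard deviations are of log2 CPM with a prior count of 1. Plots were compared by edgeR's quasi-likelihood test with terms for hour and plot, with p-values adjusted over all kept genes (Benjamini-Hochberg). Standard errors are the log2 fold change over the square root of F. Replicate numbers pair the samples because a number is 1 plot on 1 day, and deviations correlated within plots (median r 0.242, 24 pairs). Between plots the median r was -0.0703 (72 pairs). Deviations at an hour cancel out over the plots, so that second value partly follows from the first and is no separate support for the pairing. DESeq2 1.42.0, limma 3.58.1, other filters and left-out replicates were alternatives. Tests were tried on simulated data.

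Named are members that the study or its gene annotation names (931 loci used), the 10 highest at 8:00, the 10 deepest falls, the 10 smallest p between plots, those nearest a threshold and those in name lists. Other names were chosen after their values were seen. Members and lists were chosen with earlier results of these data known.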

Additional observations from a re-analysis of the deposited data

Results flagged for a closer look

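For the 28 members with a name, among the 10 with most counts at 8:00 or among the 10 deepest falls, the 4 plots at each hour were searched for a library that stood apart, by the gap to its nearest neighbour as a share of the range of the 4 values in log2 CPM. The gap was beyond Dixon's 95% critical value in 6 of 112 groups of 4 libraries, and chance gives about 1 in 20. The morning clock gene LCL1, Glyma.07G048500 at 14:00 in plot 4, was low (81.3 CPM against 106 to 108 in the other plots; gap of 0.952 of the range). A chlorophyllide a oxygenase gene, Glyma.06G113500 at 8:00 in plot 2, was low (39.8 CPM against 65.6 to 68.7 in the other plots; gap of 0.914 of the range). The nitrate reductase gene, Glyma.13G084000 at 11:00 in plot 4, was low (4.08 CPM against 13.5 to 14.8 in the other plots; gap of 0.927 of the range). The TIR-NBS-LRR gene, Glyma.13G076200 at 14:00 in plot 4, was high (20.0 CPM against 4.13 to 4.77 in the other plots; gap of 0.909 of the range). Of the unnamed members, Glyma.02G292800 at 14:00 in plot 1, was high (1102 CPM against 515 to 560.0 in the other plots; gap of 0.889 of the range), and Glyma.12G044700 at 8:00 in plot 2, was low (1716 CPM against 2322 to 2440.1 in the other plots; gap of 0.859 of the range). Plot 2 was the library apart in both cases at 8:00, and plot 4 in 3 of the 4 others. The share of flagged groups is near that of chance, so nothing is read from which plots they were.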

How the results depend on the processing

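The number of members, 179, ranged from 149 with an 8:00 mean less than 3 times that of 11:00 to 204 with a lower 8:00 limit of 10 CPM, apart from the fold itself, which gave 405 genes at 8-fold and 77 at 32-fold. With library totals 156 genes were chosen and all were among the 179, with DESeq2 size factors 178 of 184, with the median of the plots 166 of 184, and with each replicate left out there were 169 to 190 genes, of which 161 to 173 were members. In log2 units, the 17:00 level of the median gene exceeded its 8:00 level by 0.06 with TMM, 0.01 with DESeq2 size factors and 0.31 with totals, and the median member fell by 4.78, 4.83 and 4.51. The share in order in a left-out plot was 90.5% over the 4 plots and 90.7 to 92.6% under the 3 alternatives. The medians for plot 2 at 8:00 and for plots 1 and 4 at 17:00 kept their sign under both other scalings.

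Members called between any 2 plots numbered 18 (6.31% of all genes), against 29 with the DESeq2 test (8.88%), 29 with limma-voom (6.78%), 33 without the 8:00 libraries (6.70%), 11 without those of 11:00 (2.52%), 4 without those of 14:00 (1.71%), and 8 to 20 with each replicate left out (1.00 to 5.75%), and the cause was not tested. For plot 4 the count of 8 became 26 with no fold threshold, 4 without the 14:00 libraries, and 7 to 11 with replicate 1, 2 or 3 left out. For plot 2 the count of 2 became 4 with the DESeq2 test, 1 without the 11:00 libraries, 0 without those of 14:00 (36 at an unadjusted p under 0.05 by edgeR, 2 called by DESeq2 and 0 by limma-voom), and 0 to 3 with replicate 1, 3 or 4 left out, where the 0 without plot 1 had 30 at an unadjusted p, 2 by DESeq2 and 0 by limma-voom. Plots 2 and 4 are each a single plot, so they could not be left out of their own contrasts, and these leave-outs were chosen after the data were seen. Of 130 readings of the called plot contrasts under the alternatives, 116 stayed called, 14 kept their direction without the call, and 0 reversed. The alternative with no fold threshold keeps the main fit, so the calls counted under it could not be lost. The listed genes outside the members gave 84 calls between 17:00 and 8:00, 44 with no replicate block, and 61 to 81 with each replicate left out, the 61 without replicate 3.

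Levels under 1 CPM at 17:00 rest on few counts, so the depth of the deepest falls is imprecise. Promoter motifs and closest paralogues, which had been planned, were not run, since no promoter or protein sequences were used here. The hours were sampled once per plot, so nothing separates plot from day.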
